A study of Mus musculus with 16 samples.

Results

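The TNF receptor superfamily is described here through 9 of its receptors in T cells from visceral adipose tissue (VAT) of mice: Tnfrsf4, Tnfrsf18, Tnfrsf9, Tnfrsf25, Cd27, Tnfrsf14, Tnfrsf1a, Tnfrsf1b and Fas. They were taken by gene symbol from a table of 19540 genes, with earlier results of these data known. All 9 passed the filter on low values that left 14319 genes for testing. The table covers 4 groups of libraries from sorted cells: 4 of Treg KO, 3 of Treg WT, 5 of Tconv KO and 4 of Tconv WT. Treg are regulatory T cells, a class of CD4 T cells that depends on the transcription factor Foxp3 and holds back immune responses, and Tconv are the conventional T cells beside them. KO mice carry a floxed Hpgd allele (Hpgd fl) and Foxp3-YFP-Cre, in which the Foxp3 promoter drives Cre, so that Hpgd is deleted in Treg and not by design in Tconv. The product of Hpgd breaks down prostaglandin E2. WT mice are called wild type controls, and the labels do not tell whether they carry Cre or the floxed allele: the line is written the same way for all 16 samples, so the genotype rests on the titles. The strain was C57BL/6JRcc and the age 12 weeks in all groups. The design text counts 5 deleted and 4 WT animals, but no label ties a library to an animal, and the p-values below measure the spread between libraries.

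TNF receptor superfamily members are membrane proteins that trimeric ligands of the TNF family bring together on the cell surface. Most of the receptors described here recruit TRAF adaptors and, through ubiquitin ligases, release NF-kB from its inhibitors; Fas, Tnfrsf1a and Tnfrsf25 also carry a death domain, which can lead to caspase activation. Treg are known for high levels of several of these receptors, whose signals support their growth and survival, and Treg of visceral fat are known for an activated state with the interleukin 33 receptor Il1rl1.

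Libraries held 3.39 to 9.26 M reads, apart from Tconv KO 3 with 56.7 M, and the value of 3 reads was between 1.38 and 7.09 normalised units. In this table the value 1 stands for no reads. Foxp3 was at 279 to 616 in the 7 Treg libraries and at 1 to 39.3 in the 9 Tconv libraries, and Cd4 and Cd3e had reads in all 16. Hpgd, the deleted gene, was at 3.41, 2.54, 2.42 and 1 in Treg KO libraries, against 73.1, 56.0 and 4.31 in Treg WT libraries (exact 2-sided permutation test, p = 0.0571, the smallest that 35 splits allow). The library labelled Treg WT 3 thus had 3 Hpgd reads, near the KO libraries, and the receptor values that draw on Treg WT are also given without it. Treg WT 2 stood apart in another way, with Il1rl1 at 1725, against 10742 to 14889 in the other Treg libraries. The cause of this was not tested. A set of 3 Tconv libraries (WT 1, WT 3 and KO 3) stood apart in the summed level of 5 VAT Treg markers, at 8293, 8340 and 11649, against 2965 to 4118 in the 6 other Tconv libraries and 18499 to 51423 in Treg. Foxp3 did not set them apart, at 20.6, 1 and 1.89 in that order, against 1 to 39.3 in the 6 other Tconv libraries. Il5 did, at 599.7, 425.7 and 940.4, against 1 to 52.4 in the 6 others. What sets these libraries apart was not tested. Tconv WT 1 also held most of the neutrophil and mast cell marker signal (a sum of 14801 over 4 markers), and Tconv WT 3 most of the red cell signal (1209.7 over 2 markers). The sum of 6 markers of type 2 innate lymphoid cells (Il5, Il13, Arg1, Calca, Il9r and Areg, of which Treg of fat also express Areg) was 3941 to 6761 in Treg KO and 1462 to 7576 in Treg WT, against 116 to 2561 in Tconv KO and 76.6 to 2447 in Tconv WT. By group it moved with the receptors that were higher in Treg. By library it did not always do so, since Treg WT 2 (1462) lay below Tconv WT 1 (1661), Tconv WT 3 (2447) and Tconv KO 3 (2561). The part of this sum in the receptor values was not tested. Of the 6, Calca was at 720 to 1226 in Treg KO and 185 to 2864 in Treg WT, against 1 to 289 in Tconv KO and 1 to 506 in Tconv WT, Il5 at 110.03 to 177 in Treg KO and 1 to 69.4 in Treg WT, against 1 to 940.4 in Tconv KO and 1 to 599.7 in Tconv WT, and Il13 was low throughout, at no more than 14.3 in Treg and 24.1 in Tconv. Areg and Il9r were higher in every Treg library than in all Tconv libraries of the same genotype. Arg1 was at no more than 47.6 in Treg and reached 286 in Tconv KO 3 and 861 in Tconv WT 3.

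Of the 9 receptor genes, 6 lie on chromosome 4, among them Tnfrsf4 (chr4:156013843-156016612, plus strand) and Tnfrsf18 (chr4:156026164-156028895, plus strand), which are direct neighbours 9551 bases apart on mm10 (GENCODE M21). Tnfrsf9 lies at chr4:150914562-150946102 on the plus strand. These 3 genes were the ones that passed between Treg and Tconv in both genotypes, and their promoters are shown for that reason, from 250 bases before to 50 bases after the start site given by RefSeq on GRCm38.p6. Capitals mark matches to the NF-kB consensus, the sequence bound by the transcription factors that act below these receptors.

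Tnfrsf4 promoter, chr4:156013445-156013744, plus strand: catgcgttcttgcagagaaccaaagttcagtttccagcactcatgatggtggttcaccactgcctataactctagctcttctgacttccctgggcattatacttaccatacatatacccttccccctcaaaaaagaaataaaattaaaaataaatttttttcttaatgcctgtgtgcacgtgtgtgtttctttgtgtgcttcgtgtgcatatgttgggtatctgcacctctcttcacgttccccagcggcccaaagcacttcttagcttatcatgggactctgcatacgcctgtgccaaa

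Tnfrsf18 promoter, chr4:156026072-156026371, plus strand: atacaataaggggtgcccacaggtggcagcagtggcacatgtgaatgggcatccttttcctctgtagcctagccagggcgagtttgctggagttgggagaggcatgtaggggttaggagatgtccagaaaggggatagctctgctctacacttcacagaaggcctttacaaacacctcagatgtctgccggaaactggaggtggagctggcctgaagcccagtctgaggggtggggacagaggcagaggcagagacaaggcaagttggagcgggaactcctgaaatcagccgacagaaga

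Tnfrsf9 promoter, second of 2 start sites, chr4:150927749-150928048, plus strand: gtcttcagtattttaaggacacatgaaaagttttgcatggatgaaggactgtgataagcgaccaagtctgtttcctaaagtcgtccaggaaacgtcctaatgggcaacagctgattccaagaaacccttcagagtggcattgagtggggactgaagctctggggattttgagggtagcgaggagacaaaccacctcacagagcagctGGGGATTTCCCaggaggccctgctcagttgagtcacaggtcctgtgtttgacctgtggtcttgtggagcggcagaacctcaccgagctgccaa

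The Tnfrsf9 window shown held 2 overlapping NF-kB matches, which begin at -43 and -42 from the start site, and an AP-1 motif (TGANTCA) at -15, while the window of the other Tnfrsf9 start site held neither motif. Neither the Tnfrsf4 nor the Tnfrsf18 window held an NF-kB match. The Tnfrsf4 window, set by RefSeq, ends at 156013744, before the GENCODE start of the gene at 156013843. The bases at that GENCODE start were thus not searched. Over the 11 windows of the 9 receptor genes, 2 had an NF-kB match, the second being at Tnfrsf25, while 8.46% of 32851 RefSeq promoter windows of the same length had one. The AP-1 motif was in 2 windows (Tnfrsf9 and Fas; 7.81% of all), the CRE half-site TGACG, the motif of cAMP response factors, in 1 (Tnfrsf25; 20.8% of all), and the forkhead motif GTAAACA in 0 (3.65% of all). Both strands were searched, and a match is a description of the letters in the window. The GC content was 43.7% at Tnfrsf4, 55.3% at Tnfrsf18 and 51% at this Tnfrsf9 window, with a median of 52.7% over all promoters.

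Tnfrsf4, Tnfrsf18 and Tnfrsf9, which encode the costimulatory receptors OX40, GITR and CD137, were higher in Treg than in Tconv of both genotypes. In KO mice, 5 of 9 receptor genes passed (limma, Benjamini-Hochberg adjusted p under 0.05): 4 were higher in Treg and 1 was lower. Over all genes tested in KO mice, 6.81% passed, 4.16% higher and 2.65% lower. In WT mice, 3 of 9 passed and all 3 were higher in Treg, where 4.18% of all genes passed, 2.2% higher and 1.98% lower. The median log2 difference over the 9 genes was 0.42 in KO mice and 0.28 in WT mice, against 0.04 and -0.00374 over all genes tested. Treg and Tconv libraries did not overlap in KO mice for 4 receptor genes higher in Treg and 1 lower, where 6% and 4.66% of all genes behaved so, and in WT mice for 3 higher and 1 lower, where 5.87% and 6.1% did. The 2 comparisons share no library, but they come from 1 fit of all 16 libraries and share its estimate of spread. Values below are normalised units, fold changes are on the scale of log2(value + 1), and errors are SE for log2 differences and SD for means.

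**Figure D1:**
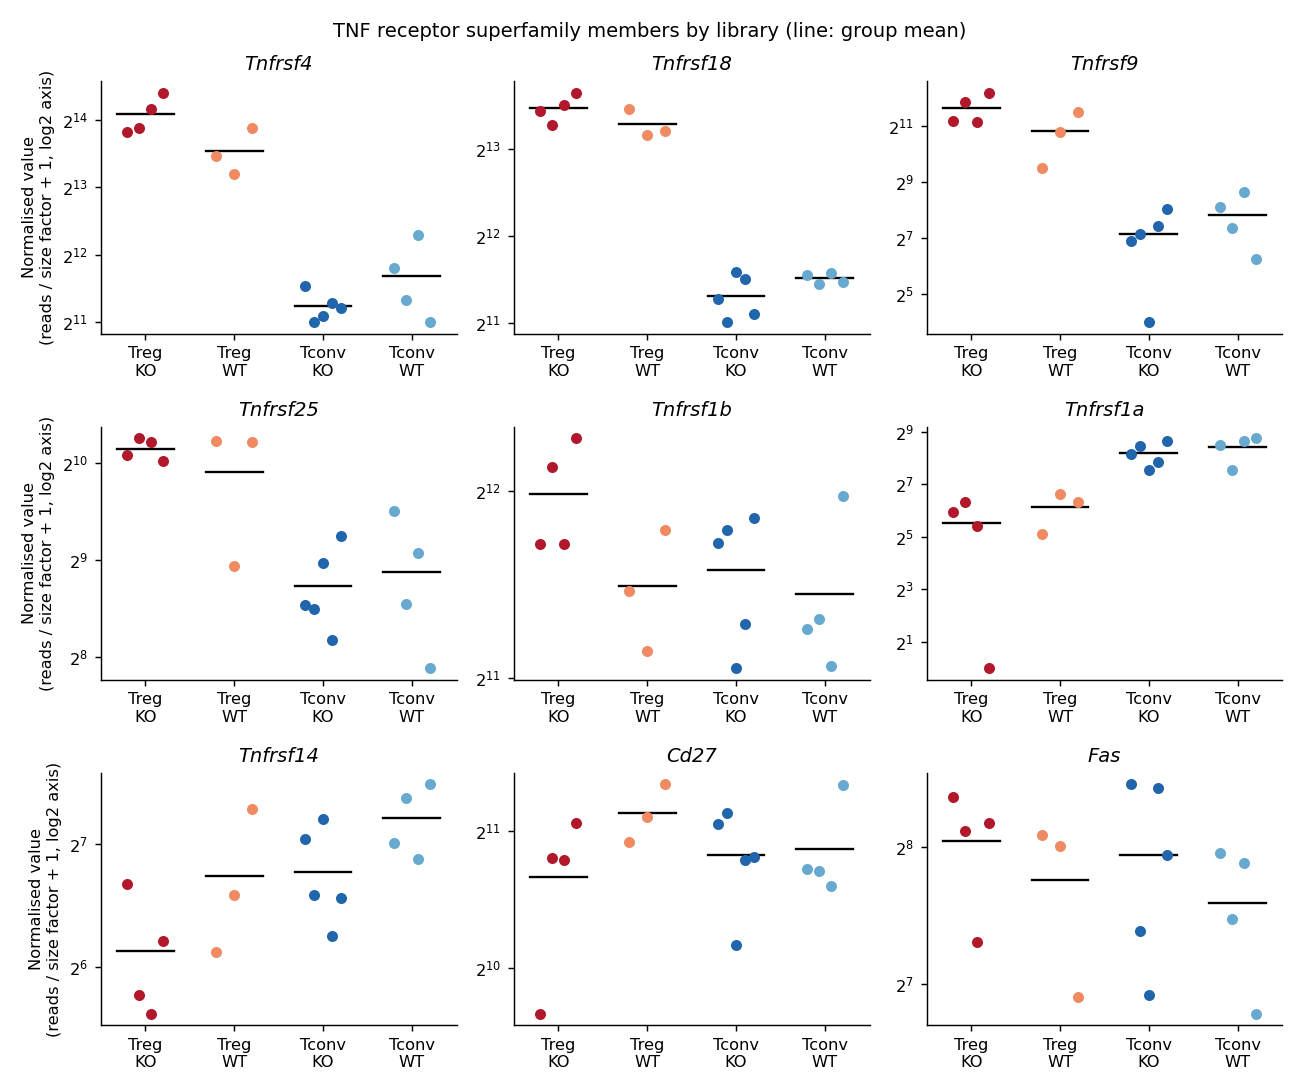
Normalised value (reads divided by the size factor, plus 1, log2 axis) of each of the 9 receptor genes in each library of Treg KO (n = 4), Treg WT (n = 3), Tconv KO (n = 5) and Tconv WT (n = 4), with a line at the group mean. All Treg libraries lie above all Tconv libraries for Tnfrsf4, Tnfrsf18 and Tnfrsf9, and all lie below them for Tnfrsf1a; the lowest Tnfrsf1a point, Treg KO 4, had no reads.

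Tnfrsf4 encodes OX40, a receptor that prolongs the survival of activated T cells. It was at 14451, 15079, 18359 and 21804 in Treg KO libraries, against 2946, 2047, 2170.1, 2474 and 2356 in Tconv KO libraries. In WT mice it was at 11359, 9403 and 15048 in Treg, against 3573, 2560.4, 4988 and 2034 in Tconv. The lowest Treg library was thus well above the highest Tconv library in both genotypes. The log2 difference was 2.85 ± 0.22 in KO mice (7.22-fold, adjusted p = 1.39e-07, rank 5 of 14319 genes by p) and 1.92 ± 0.25 in WT mice (3.77-fold, adjusted p = 1.00e-04, rank 37). The highest Tconv values, in WT 1 and WT 3, came from libraries with high VAT Treg marker sums, and without these and Tconv KO 3 the log2 difference was 2.82 in KO mice and 2.36 in WT mice, both past the threshold.

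Tnfrsf18 encodes GITR, a costimulatory receptor long used as a marker of Treg. Treg KO libraries had 11143, 9943, 11674 and 12913, against 2475, 2052, 3082, 2897 and 2199 in Tconv KO libraries. Treg WT libraries had 11296, 9204 and 9501, against 2993, 2796, 3050.4 and 2833 in Tconv WT libraries. The groups were tight and far apart, and the spread within any group was small beside the gap. The log2 difference of 2.18 ± 0.14 in KO mice (4.53-fold, adjusted p = 1.98e-08) ranked 2nd by p among all genes tested, and that of 1.77 ± 0.16 in WT mice (3.41-fold, adjusted p = 2.31e-06) ranked 6th. One exon of Tnfrsf18 overlaps an exon of the noncoding gene Gm16008, and without strand the reads of the pair cannot be told apart. The 3 Tconv libraries with high VAT Treg markers held the highest Tconv values by a small margin, and without them the log2 difference was 2.25 in KO mice and 1.82 in WT mice, both past the threshold.

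Tnfrsf9 encodes CD137, a receptor induced by activation that recruits Traf1 and Traf2. Its values were 2266, 3628, 2221 and 4614 in Treg KO libraries, against 120.2, 142, 16.1, 174 and 264 in Tconv KO libraries. In WT mice they were 719, 1757 and 2826 in Treg, against 277, 163, 395 and 76.4 in Tconv. It varied more within groups than Tnfrsf4 or Tnfrsf18 did, yet Treg and Tconv did not overlap in either genotype. The log2 difference was 4.83 ± 0.63 in KO mice (28.4-fold, adjusted p = 4.71e-05) and 2.98 ± 0.71 in WT mice (7.91-fold, adjusted p = 0.0191). The WT call did not hold without the library labelled Treg WT 3 (adjusted p = 0.114, log2 difference 2.54), nor without Treg WT 2 (0.0526), Tconv WT 2 (0.0504) or Tconv WT 4 (0.0647), nor with voom on recovered reads (0.0955). Without the 3 Tconv libraries that stood apart, the log2 difference was 4.17 in KO mice and 3.76 in WT mice, with adjusted p of 3.53e-06 and 0.000359.

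Tnfrsf25 encodes DR3, the receptor of Tnfsf15, which carries a death domain and expands Treg when engaged in mice. It was at 1087, 1221, 1192 and 1038 in Treg KO libraries, against 372, 361, 499.8, 289.8 and 609 in Tconv KO libraries. In WT mice it was at 1195, 490.4 and 1192 in Treg, against 728, 374, 538 and 236 in Tconv. The KO groups were apart, while Treg WT 2 fell within the range of the Tconv WT libraries. It passed in KO mice (log2 difference 1.46 ± 0.32, 2.74-fold, adjusted p = 0.00707) and did not pass in WT mice (1.04 ± 0.37, adjusted p = 0.132). Without Treg WT 2 the WT difference passed (adjusted p = 0.0241), as it did without the 3 Tconv libraries that stood apart (0.0326). In Treg WT 2, Il1rl1 was at 1725, against 10742 to 14889 in the other Treg libraries, and its VAT Treg marker sum of 18499 was the lowest of the Treg libraries; the part of this in the Tnfrsf25 value was not tested.

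Cd27, a costimulatory receptor of resting and memory T cells that binds Cd70, was high in all 4 groups. Treg KO libraries had 813, 1783, 1765 and 2138, against 2117, 2241, 1154, 1769 and 1799 in Tconv KO libraries. Treg WT libraries had 1934, 2200.1 and 2595, against 1687, 1671, 1552 and 2578 in Tconv WT libraries. The ranges overlapped in both genotypes, with Treg KO 1 the lowest library and the library labelled Treg WT 3 the highest. The log2 difference was -0.21 ± 0.26 in KO mice (adjusted p = 0.748) and 0.28 ± 0.29 in WT mice (adjusted p = 0.721). One exon of Cd27 overlaps the microRNA gene Mir8113.

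Tnfrsf14, the herpesvirus entry mediator, binds Tnfsf14, Btla and Cd160 and can pass signals in both directions between cells. Its mean was 70.0 ± 24.0 in Treg KO and 107 ± 44.0 in Treg WT, against 109 ± 29.2 in Tconv KO and 148 ± 29.2 in Tconv WT. Single libraries ranged from 49.1 in Treg KO 3 to 179 in Tconv WT 4, on 34 to 1153 reads, and the ranges overlapped. The log2 difference between Treg and Tconv was -0.65 ± 0.40 in KO mice (adjusted p = 0.438) and -0.52 ± 0.46 in WT mice (adjusted p = 0.661).

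Of the 2 receptors of TNF itself, Tnfrsf1a passed, lower in Treg of KO mice, and Tnfrsf1b did not pass in either genotype. Tnfrsf1a encodes TNFR1, which carries a death domain and is widely expressed, and Tnfrsf1b encodes TNFR2, which lacks one, is largely restricted to blood and endothelial cells and supports Treg growth. Tnfrsf1a was at 61.3, 79.4 and 42.1 in Treg KO 1 to 3 and had no reads in Treg KO 4, against 281, 352, 188, 227 and 403 in Tconv KO libraries. In WT mice it was at 34.8, 98.7 and 79.3 in Treg, against 358, 188, 397 and 429 in Tconv. All 7 Treg libraries were below all 9 Tconv libraries. Tnfrsf1a fell in Treg of KO mice (log2 difference -3.45 ± 0.77, adjusted p = 0.00771). In WT mice the difference was -2.31 ± 0.88 and did not pass (adjusted p = 0.169). The WT difference passed without Treg KO 4, the library at 0 reads, which enters the shared estimate of spread (adjusted p = 0.00659), with a fit of the WT libraries alone (0.0444) and with a pseudocount of 10 (0.0363). In bulk RNA, fewer cells that express a gene and less of its RNA per cell cannot be told apart.

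Tnfrsf1b was high in every library, at 3363, 4470.4, 3361 and 4971 in Treg KO, against 3371, 3545, 2125, 2506 and 3702 in Tconv KO. Treg WT libraries had 2832, 2263 and 3543, against 2455, 2546, 2144 and 4023 in Tconv WT libraries. The ranges overlapped in both genotypes, with log2 differences of 0.42 ± 0.21 in KO mice (adjusted p = 0.310) and 0.06 ± 0.24 in WT mice (adjusted p = 0.943). Set against each other per kilobase of exon, Tnfrsf1b exceeded Tnfrsf1a by a median ratio of 47.1 in Treg KO, against 7.53 in Tconv KO, and by 30.7 in Treg WT, against 5.52 in Tconv WT. The lowest Treg ratio was 15.7 (Treg WT 2) and the highest Tconv ratio 9.25 (Tconv WT 2), so that the ratios did not overlap; the Treg KO 4 ratio, with 0 reads of Tnfrsf1a, is a lower bound taken at 3 reads. The ratio differed with exact 2-sided permutation p = 0.0159 in KO mice, the smallest that 126 splits allow, and 0.0571 in WT mice, the smallest that 35 splits allow; adjusted over 8 ratio comparisons these were 0.0635 and 0.152, so neither passed.

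Fas, the death receptor that triggers apoptosis in lymphocytes when bound by Fasl, showed no difference past the spread. Its mean was 263 ± 73.5 in Treg KO and 217 ± 83.9 in Treg WT, against 246 ± 103 in Tconv KO and 193 ± 63.1 in Tconv WT, with overlapping ranges in all 4 groups and single libraries from 110.2 to 351. The log2 difference was 0.16 ± 0.39 in KO mice (adjusted p = 0.895) and 0.14 ± 0.45 in WT mice (adjusted p = 0.927).

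**Figure D2:**
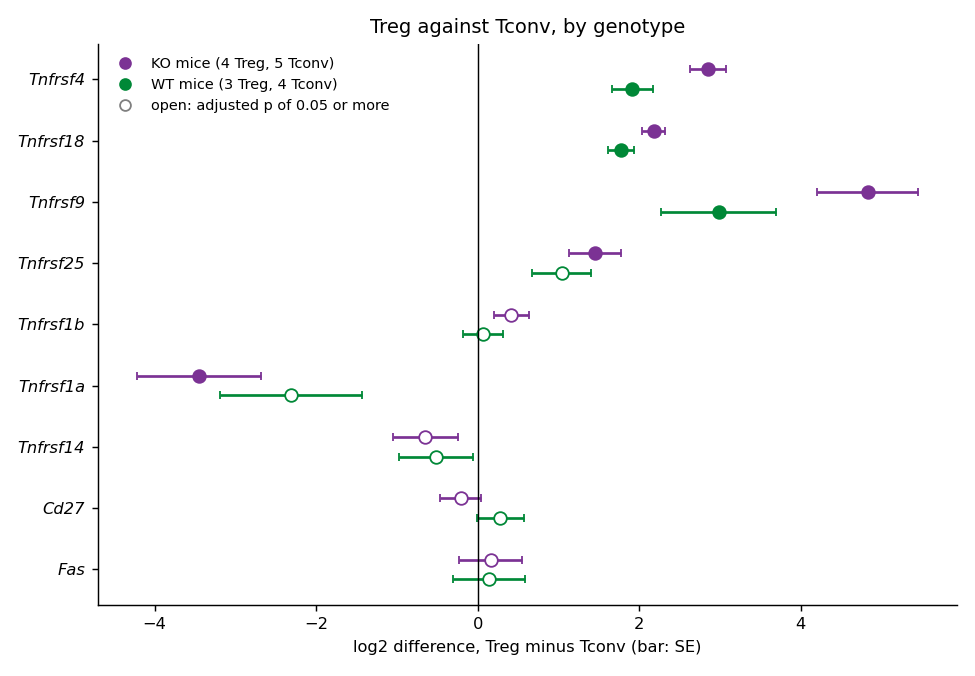
Log2 difference, Treg minus Tconv, of each receptor gene in KO mice (4 Treg, 5 Tconv libraries) and WT mice (3 Treg, 4 Tconv libraries), with bars of 1 SE; filled points passed at an adjusted p under 0.05. Tnfrsf4, Tnfrsf18 and Tnfrsf9 passed in both genotypes, Tnfrsf25 (1.46) and Tnfrsf1a (-3.45) in KO mice alone, and Tnfrsf1b, Tnfrsf14, Cd27 and Fas in neither.

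Without the library labelled Treg WT 3, the log2 difference in WT mice was 1.73 for Tnfrsf4 and 1.81 for Tnfrsf18, and both still passed. It was then 0.83 for Tnfrsf25, 0.17 for Cd27, -0.82 for Tnfrsf14, -2.46 for Tnfrsf1a, -0.0981 for Tnfrsf1b and 0.52 for Fas, none of which passed.

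A call in KO mice and none in WT mice is no sign that the genotypes differ, and the difference of the Treg against Tconv contrasts was tested directly. It equals the difference of the KO effects between Treg and Tconv, and 0 of 9 receptor genes passed it (limma; 0% of all genes passed). At an unadjusted p under 0.05, 1 of 9 receptor genes stood, Tnfrsf4, where 5.22% of all genes did. The Tnfrsf4 difference was 0.94 ± 0.33 (unadjusted p = 0.0105, adjusted p = 0.928, rank 137 by p). It was 1.85 ± 0.95 for Tnfrsf9 (adjusted p = 0.928), 0.41 ± 0.21 for Tnfrsf18 (0.928) and -1.14 ± 1.17 for Tnfrsf1a (0.975). Without the 3 Tconv libraries that stood apart, the difference was 0.46 for Tnfrsf4 and 0.41 for Tnfrsf9, and without the library labelled Treg WT 3 it was 1.12 and 2.29, none of which passed.

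Deletion of Hpgd in Treg moved none of the 9 receptor genes past the threshold in either cell type. In Treg, 0 of 9 passed KO against WT with limma, where 0.021% of all genes passed (3 genes), and 0 of 9 passed with voom. At an unadjusted p under 0.05 there was 1 of 9, Tnfrsf4, where 6.22% of all genes did, and 0 of 9 had groups that did not overlap, where 6.01% of all genes had. The median log2 difference over the 9 was 0.32, against 0.08 over all genes tested. Tnfrsf4 averaged 17423 ± 3386 in Treg KO and 11937 ± 2867 in Treg WT, a log2 difference of 0.55 ± 0.25 (unadjusted p = 0.0380, adjusted p = 0.779). The library labelled Treg WT 3, at 15048, lay within the range of the 4 Treg KO libraries, and the other two Treg WT libraries lay below it; without that library the difference was 0.73 (adjusted p = 0.715).

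Tnfrsf1b averaged 4041 ± 811 in Treg KO and 2879 ± 641 in Treg WT (log2 difference 0.49 ± 0.24, adjusted p = 0.809). Treg WT 1 and 2 were below all Treg KO libraries, and the library labelled Treg WT 3 was among them. That library also lay within the Treg KO range for Tnfrsf9, Tnfrsf25 and Tnfrsf1a. It lay above that range for Cd27 (2595, against 813 to 2138) and Tnfrsf14 (155, against 49.1 to 102). For Fas (120.1, against 158 to 329) and Tnfrsf18 (9501, against 9943 to 12913) it lay below. Tnfrsf9 averaged 3182 ± 1156 in Treg KO and 1768 ± 1053 in Treg WT (0.99 ± 0.71, adjusted p = 0.866), with overlap at 2221 to 2826. Cd27 averaged 1625 ± 567 in Treg KO and 2243 ± 332 in Treg WT (-0.54 ± 0.29, adjusted p = 0.830). The remaining log2 differences in Treg were -1.36 ± 0.88 for Tnfrsf1a, -0.58 ± 0.46 for Tnfrsf14, 0.35 ± 0.37 for Tnfrsf25, 0.32 ± 0.45 for Fas and 0.19 ± 0.16 for Tnfrsf18. Without the library labelled Treg WT 3, the log2 differences were 1.43 for Tnfrsf9, 0.65 for Tnfrsf1b, -0.43 for Cd27, -1.22 for Tnfrsf1a, -0.28 for Tnfrsf14, 0.56 for Tnfrsf25, -0.0580 for Fas and 0.16 for Tnfrsf18, and none passed. Without Treg WT 2, the Tnfrsf25 difference in Treg turned to -0.0761 and did not pass. The SE was narrowest for Tnfrsf18 and widest for Tnfrsf1a, followed by Tnfrsf9.

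In Tconv, 0 of 9 passed KO against WT (limma; 0% of all genes passed), 0 of 9 passed with voom, and 0 of 9 reached an unadjusted p under 0.05, where 5.45% of all genes did. Groups that did not overlap were found for 0 of 9, against 1.67% of all genes. The largest in size was Tnfrsf9, with 143 ± 89.8 in Tconv KO and 228 ± 138 in Tconv WT (log2 difference -0.86 ± 0.63, adjusted p = 0.957). Tnfrsf4 averaged 2399 ± 348 in Tconv KO and 3289 ± 1300.3 in Tconv WT (-0.38 ± 0.22, adjusted p = 0.931). Both had their highest Tconv value in Tconv WT 3, and without the 3 libraries that stood apart the differences turned to 0.58 for Tnfrsf9 and 0.09 for Tnfrsf4. The other 7 genes differed by between -0.45 (Tnfrsf14) and 0.30 (Fas) on the log2 scale.

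**Figure D3:**
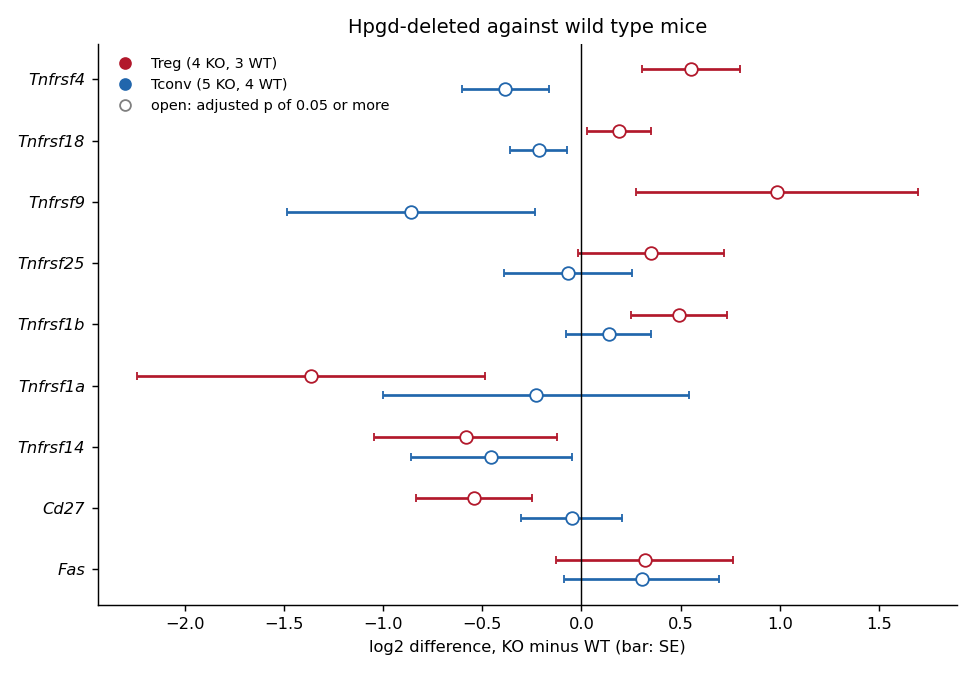
Log2 difference, KO minus WT, of each receptor gene in Treg (4 KO, 3 WT libraries) and in Tconv (5 KO, 4 WT libraries), with bars of 1 SE. Every point is open, since none passed; in Treg they range from -1.36 (Tnfrsf1a) to 0.99 (Tnfrsf9).

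Levels of different genes were set side by side per kilobase of annotated exon, in normalised units with the added 1 taken off. On this scale Tnfrsf4 and Tnfrsf18 were the highest of the 9 in all 4 groups. Tnfrsf4 averaged 12764 ± 2481 per kb in Treg KO, 8744 ± 2100.0 in Treg WT, 1757 ± 255 in Tconv KO and 2409 ± 953 in Tconv WT. It ranked 20th, 27th, 186th and 137th of 18267 genes in these groups. Tnfrsf18 averaged 7492 ± 808 per kb in Treg KO, 6561 ± 743 in Treg WT, 1667 ± 290 in Tconv KO and 1914 ± 80.6 in Tconv WT, ranks 37, 43, 198 and 184. The pair were thus among the most abundant transcripts per length in Treg, and still within the top 200 in Tconv.

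Below them the order differed between cell types. Tnfrsf9 stood at place 3 of the 9 in Treg KO (1169 ± 425 per kb, rank 326 of all genes) and at place 5 in Treg WT (649 ± 387, rank 557), but last in both Tconv KO (52.3 ± 33.0, rank 5231) and Tconv WT (83.3 ± 50.8, rank 3885). Tnfrsf1a stood last in both Treg groups (17.3 ± 12.97 per kb in KO, 27.0 ± 12.6 in WT). In Treg KO the full order was Tnfrsf4, Tnfrsf18, Tnfrsf9, Tnfrsf1b, Cd27, Tnfrsf25, Fas, Tnfrsf14 and Tnfrsf1a. The ranges of neighbours were apart except from Tnfrsf9 to Tnfrsf25, where each neighbouring pair overlapped. In Treg WT, Cd27 and Tnfrsf1b came before Tnfrsf9, and the ranges separated only between Tnfrsf18 and Cd27, Tnfrsf25 and Fas, and Tnfrsf14 and Tnfrsf1a.

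In Tconv KO the order was Tnfrsf4, Tnfrsf18, Tnfrsf1b, Cd27, Tnfrsf25, Fas, Tnfrsf1a, Tnfrsf14 and Tnfrsf9. In Tconv WT it was Tnfrsf4, Tnfrsf18, Cd27, Tnfrsf1b, Tnfrsf25, Tnfrsf1a, Tnfrsf14, Fas and Tnfrsf9. Both Tconv groups had a gap under Tnfrsf18 and another above Tnfrsf25, and from Tnfrsf25 down the ranges of each neighbouring pair overlapped. In both Tconv groups the ranges of Tnfrsf4 and Tnfrsf18 overlapped, as in Treg WT and unlike in Treg KO. The median ratio of Tnfrsf4 to Tnfrsf18 was 1.11 in Tconv KO and 1.18 in Tconv WT, against 1.72 in Treg KO and 1.14 in Treg WT. Between Treg KO and Tconv KO that ratio did not overlap (1.45 to 1.89, against 0.786 to 1.33; exact 2-sided permutation p = 0.0159, 0.0635 adjusted over 8 ratio comparisons).

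**Figure D4:**
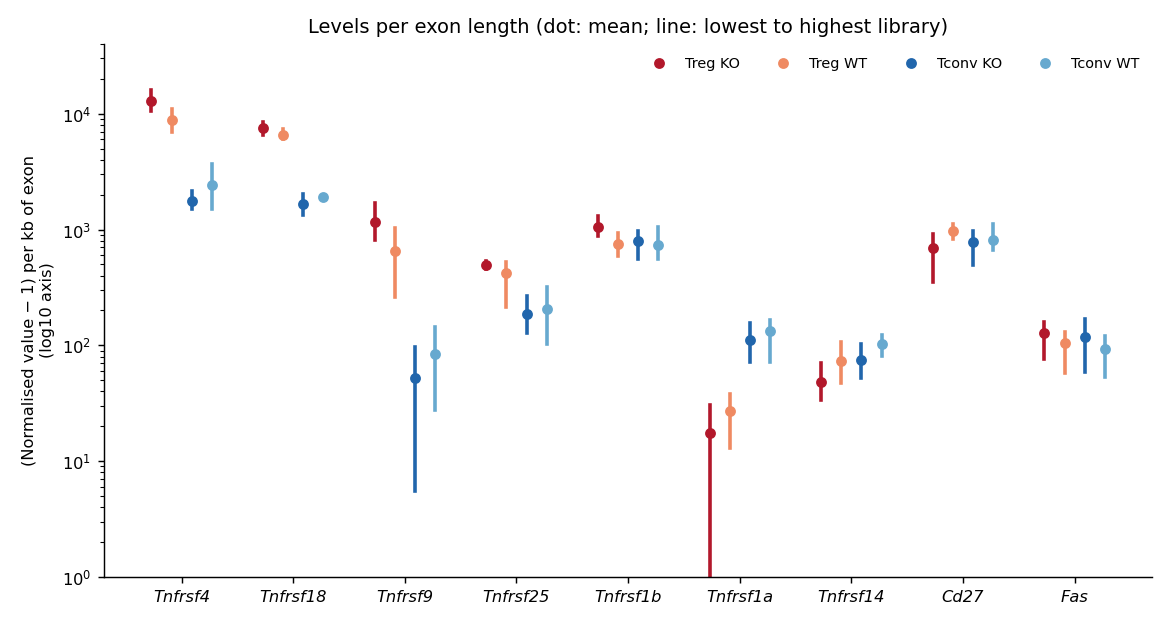
Mean level per kilobase of exon (log10 axis) of each receptor gene in Treg KO (n = 4), Treg WT (n = 3), Tconv KO (n = 5) and Tconv WT (n = 4), with lines from the lowest to the highest library. Tnfrsf4 and Tnfrsf18 lie highest in all 4 groups; the Tnfrsf1a line of Treg KO runs off the lower end because Treg KO 4 had 0 reads.

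The ligands of these receptors gave a different picture from the receptors. Of 12 ligands and counter-receptors, 9 passed the filter, and the same 4 of these were lower in Treg in both genotypes: Fasl, Btla, Cd160 and Tnf. In KO mice 1 more, Ltb, was higher in Treg. Over all genes tested, 2.65% were lower and 4.16% higher in KO mice, and 1.98% lower in WT mice. The 4 WT calls held without the library labelled Treg WT 3. The median log2 difference over the 9 was -1.23 in KO mice and -2.35 in WT mice, against 0.04 and -0.00374 over all genes tested.

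Fasl, the ligand of Fas and a killing molecule of effector T cells, was at 46.8, 113, 1 and 40.9 in Treg KO, against 1504, 2458, 1128, 2278 and 1972 in Tconv KO. It was at 35.7, 44.6 and 36.3 in Treg WT, against 1405, 1566, 1968 and 1824 in Tconv WT. Every Tconv library was many times above every Treg library (log2 difference -6.11 ± 0.72 in KO mice, adjusted p = 1.98e-05; -5.40 ± 0.82 in WT mice, adjusted p = 0.000558). Btla, an inhibitory receptor that binds Tnfrsf14, averaged 66.5 ± 43.7 in Treg KO, against 537 ± 207 in Tconv KO, and 36.2 ± 25.6 in Treg WT, against 537 ± 245 in Tconv WT. Its log2 difference was -3.22 ± 0.57 in KO mice (adjusted p = 0.00105) and -4.03 ± 0.64 in WT mice (adjusted p = 0.000893).

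Cd160, the other inhibitory partner of Tnfrsf14, had 35 reads in Treg KO 1 and 0 in the other 6 Treg libraries, against 22.5 to 139 in Tconv KO and 27.4 to 123 in Tconv WT. In WT mice it was at least 22.9-fold lower in Treg, taken at 3 reads in the Treg WT library with the highest floor (adjusted p = 0.00613; in KO mice 0.00710). Its exons overlap those of the coding gene Pdzk1, so its reads are uncertain. The same limit holds for Nfkb2 (overlap with Psd), Nfkbib (Ccer2 and Sirt2) and Foxp3 (Ccdc22 and Ppp1r3f). Tnf was lower by a smaller margin, at 424, 456, 311 and 489 in Treg KO, against 1137, 983, 1166, 887 and 777 in Tconv KO, and at 479, 264 and 536 in Treg WT, against 1146, 1067, 1141 and 982 in Tconv WT. The groups did not overlap (log2 difference -1.24 ± 0.23 in KO mice, adjusted p = 0.00143; -1.40 ± 0.26 in WT mice, 0.00287). The sum of 6 markers of CD8 T and NK cells (Cd8a, Cd8b1, Ncr1, Klrb1c, Eomes and Prf1) moved with these genes, though not every marker did. It was 84.4 to 314 in Treg KO and 110.3 to 551 in Treg WT, against 1020.3 to 3125 in Tconv KO and 725 to 1323 in Tconv WT. Of these, Eomes was at 1 to 34.8 in Treg KO and 1 to 47.3 in Treg WT, against 419 to 2288 in Tconv KO and 424 to 994 in Tconv WT. Prf1 was at 9.50 to 177 in Treg KO and 3.21 to 385 in Treg WT, against 205 to 1094 in Tconv KO and 144 to 387 in Tconv WT. Klrb1c was at no more than 2.42 in Treg and reached 347 in Tconv. In WT mice Cd8a did not follow the sum, at 2.83 to 76.0 in Treg, against 1 to 6.63 in Tconv. Cd8b1 overlapped there, at 60.5 to 115, against 7.04 to 129. In KO mice Cd8a was at 9.50 to 17.9 in Treg and 1 to 289 in Tconv, and Cd8b1 at 4.62 to 126 and 6.33 to 280. Ncr1 had no reads in any Treg WT or Tconv KO library and reached 6.66 in Treg KO and 67.4 in Tconv WT. The part of such cells in the ligand values was not tested.

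Ltb, which with Lta forms lymphotoxin, averaged 5046 ± 927 in Treg KO and 3152 ± 642 in Tconv KO (log2 difference 0.69 ± 0.18, adjusted p = 0.0225), and 4154 ± 836 in Treg WT and 3168 ± 436 in Tconv WT (0.38 ± 0.20, adjusted p = 0.376). The KO call was lost under quantile scaling (adjusted p = 0.211), with the replicate block (0.0805) and without Treg KO 3 (0.0506), Treg KO 4 (0.101), Tconv KO 1 (0.0539) or Tconv KO 5 (0.0688), as well as without the 3 Tconv libraries that stood apart (0.0501). Tnfsf9, the ligand of Tnfrsf9, averaged 219 ± 130.5 in Treg KO and 328 ± 27.3 in Treg WT, against 194 ± 71.7 in Tconv KO and 274 ± 162 in Tconv WT, and did not pass. Tnfsf14 was at 84.0 to 207 in Treg KO and 8.85 to 214 in Treg WT, against 252 to 499 in Tconv KO and 227 to 494 in Tconv WT, and Lta was at no more than 131 in any library; neither passed. Tnfsf4, the ligand of Tnfrsf4, reached at most 51.7. The ligand genes for Tnfrsf18, Tnfrsf25 and Cd27 (Tnfsf18, Tnfsf15 and Cd70) were below the filter.

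Below the receptors, most of the listed genes of NF-kB passed in KO mice. Of 12 NF-kB genes, 9 were higher in Treg of KO mice and 6 in Treg of WT mice, where 4.16% and 2.2% of all genes were, and none was lower. The median log2 difference over the 12 was 1.20 in KO and 1.24 in WT mice. The 6 that passed in both were the subunits Nfkb1, Nfkb2, Rel and Relb and the inhibitors Nfkbia and Nfkbie, which are themselves induced by NF-kB. Nfkb1 averaged 7133 ± 950 in Treg KO, against 2525 ± 791 in Tconv KO (log2 difference 1.54 ± 0.27, adjusted p = 0.00103), and 8039 ± 3186 in Treg WT, against 2689.6 ± 1110.0 in Tconv WT (1.60 ± 0.31, adjusted p = 0.00431). Rel averaged 3276 ± 288 in Treg KO, against 1266 ± 228 in Tconv KO (1.39 ± 0.23, adjusted p = 0.000497), and 2771 ± 1023 in Treg WT, against 1033 ± 309.6 in Tconv WT (1.41 ± 0.26, adjusted p = 0.00279).

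Nfkbia, the inhibitor that holds NF-kB in the cytoplasm, averaged 59830.0 ± 17181 in Treg KO, against 11289.5 ± 8457 in Tconv KO (log2 difference 2.59 ± 0.42, adjusted p = 0.000519), and 45099 ± 23952 in Treg WT, against 11049 ± 6004 in Tconv WT (2.04 ± 0.48, adjusted p = 0.0181). Without the library labelled Treg WT 3, the WT calls of Relb (adjusted p = 0.0686), Nfkbia (0.0816) and Nfkbie (0.0817) were lost, as they were with voom (0.0505, 0.0647 and 0.0620). That of Relb was also lost in a fit of the WT libraries alone (0.0595), and that of Nfkbia without Treg WT 1 (0.0947), Tconv WT 2 (0.0648) or Tconv WT 4 (0.0585). Rela, Map3k14 and Nfkbib passed in KO mice alone, with log2 differences of 0.98, 1.17 and 1.11, against 0.53, 0.51 and 1.00 in WT mice. The Map3k14 call was lost without Treg KO 3 (adjusted p = 0.0608), Treg KO 4 (0.114), Tconv KO 1 (0.0566) or Tconv KO 5 (0.0792). In Tconv the highest Nfkbia values, 26248, 15291 and 17081, were those of KO 3, WT 1 and WT 3, the libraries with high VAT Treg marker sums, whose part in these differences was not tested. None of the 12 passed the test of the difference between genotypes.

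Of 7 TRAF adaptor genes tested, 3 passed in KO mice and 1 in WT mice, all higher in Treg, where 4.16% and 2.2% of all genes were. Traf1, which binds Tnfrsf9 and Tnfrsf1b together with Traf2, was at 5538, 6045, 6988 and 8524 in Treg KO, against 2599, 2473, 3489.7, 2381 and 2455 in Tconv KO. In WT mice it was at 7534, 2966 and 9791 in Treg, against 3278, 1826, 3050.4 and 2173 in Tconv. The KO groups were apart and Treg WT 2 lay within the Tconv WT range (log2 difference 1.33 ± 0.27 in KO mice, adjusted p = 0.00325; 1.26 ± 0.30 in WT mice, 0.0200). The WT call was lost without the library labelled Treg WT 3 (adjusted p = 0.149), Treg WT 1 (0.0895), Tconv WT 2 (0.0688) or Tconv WT 4 (0.0575), with voom (0.0695) and in a fit of the WT libraries alone (0.106). Traf4 averaged 1088 ± 79.4 in Treg KO and 255 ± 110.4 in Tconv KO (2.21 ± 0.37, adjusted p = 0.000600), and Tank, a TRAF-binding regulator, rose by 0.98 ± 0.26 (adjusted p = 0.0237); neither passed in WT mice (0.152 and 0.410). The Tank call was lost without Treg KO 3 (adjusted p = 0.105), Treg KO 4 (0.0938), Tconv KO 2 (0.0630) or Tconv KO 4 (0.0602).

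Of 9 ubiquitin ligase and deubiquitinase genes, 3 passed in KO mice and 1 in WT mice, all higher in Treg, against the same 4.16% and 2.2% of all genes. In KO mice these were Birc3, a ligase recruited by Traf2 (log2 difference 1.65 ± 0.36, adjusted p = 0.00618), Tnip1, a binding partner of Tnfaip3 (1.45 ± 0.27, 0.00183) and Tnfaip3, the deubiquitinase A20 that limits NF-kB signalling (0.63 ± 0.16, 0.0178). The Tnfaip3 level was 51905 ± 1798 in Treg KO and 33915 ± 5107 in Tconv KO, and its call was lost under quantile scaling (adjusted p = 0.310) and without Treg KO 3 (0.0599) or Tconv KO 5 (0.0582). In WT mice it was Birc2 (1.21 ± 0.33, adjusted p = 0.0410), which was lost in 12 of 27 alternatives. Of 9 death domain adaptor and caspase genes, Faim, an inhibitor of Fas-induced death, was higher in Treg of KO mice (1.10 ± 0.25, adjusted p = 0.00846).

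Among 12 other receptors of the superfamily, 1 passed in KO mice and 0 in WT mice, where 6.81% and 4.18% of all genes passed. The 1 was Tnfrsf10b, the receptor of the death ligand Tnfsf10, at 1358, 1258, 838 and 1306 in Treg KO, against 214, 258, 316, 101 and 206 in Tconv KO, with groups far apart (log2 difference 2.51 ± 0.40, adjusted p = 0.000442). In Treg WT it was at 1108, 319 and 1898, against 329.8, 261, 437 and 329.7 in Tconv WT, where Treg WT 2 lay among the Tconv libraries (adjusted p = 0.102). Of 5 other ligands, 1 was lower in Treg of KO mice, Tnfsf11 (-2.20 ± 0.59, adjusted p = 0.0251), a call lost with voom (0.151) and without Treg KO 1 (0.108), Treg KO 3 (0.0608) or Tconv KO 3 (0.0578). Across all 7 lists, 0 of the 63 genes tested passed KO against WT in Treg, KO against WT in Tconv, or the difference of these effects with limma, and 3, 2 and 1 of them had an unadjusted p under 0.05, where 6.22%, 5.45% and 5.22% of all genes did.

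**Figure D5:**
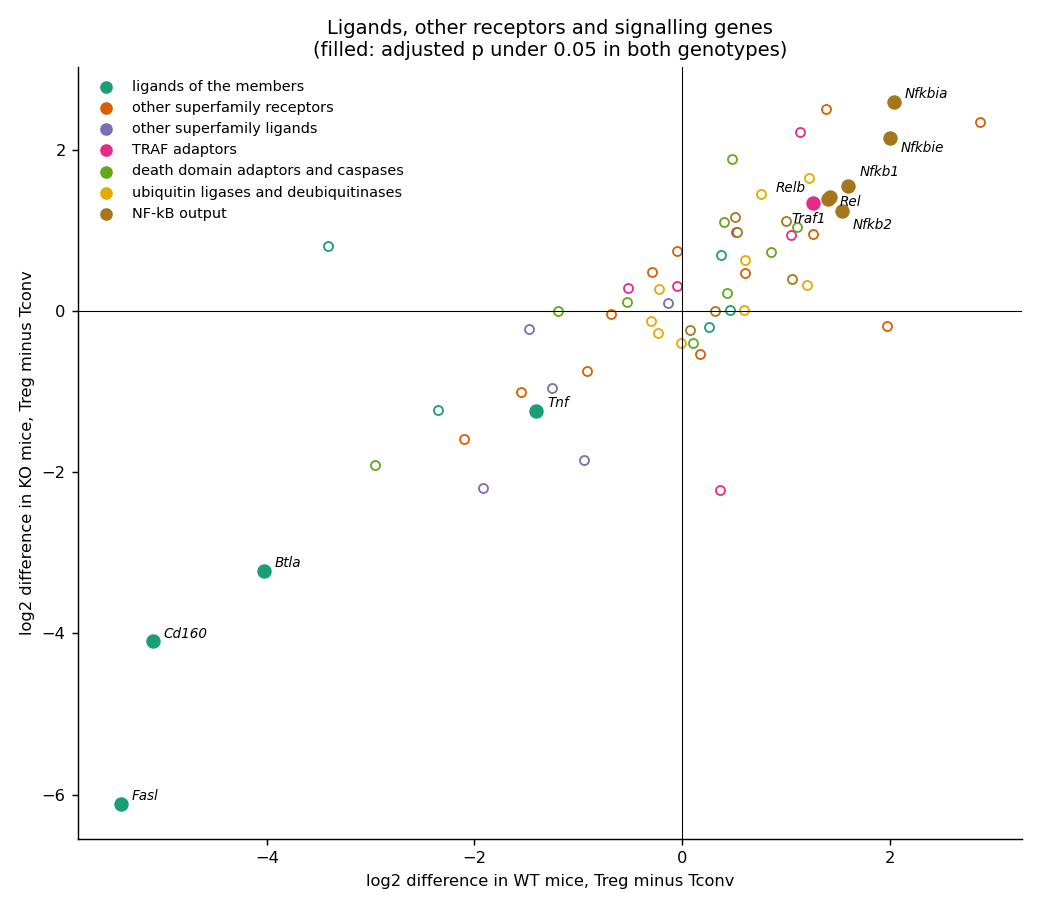
Log2 difference between Treg and Tconv in KO mice (y axis) and in WT mice (x axis) of the tested ligands, other receptors and signalling genes, coloured by list; filled and named genes passed at an adjusted p under 0.05 in both genotypes. Fasl (-6.11 in KO and -5.40 in WT mice), Cd160, Btla and Tnf lie at the lower left, and Traf1 with 6 NF-kB genes at the upper right.

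Genes whose profile over the 16 libraries was most like that of a receptor were sought among 9153 genes with a mean of at least 50, by the root mean square difference of log2 values after each gene's own mean was taken off. The gene most like Tnfrsf4 was its neighbour Tnfrsf18 (0.40), followed by Capg, an actin-capping protein (0.40). Most like Tnfrsf18 were Glrx, a glutaredoxin (0.29), and Capg (0.33); Tnfrsf4 came 13th in that order. Capg averaged 8012 ± 1414 in Treg KO and 6528 ± 1902 in Treg WT, against 1412 ± 609 in Tconv KO and 1948 ± 520.1 in Tconv WT. Tnfrsf9 had no close match: the nearest were Pcyt1a, an enzyme of phosphatidylcholine synthesis (0.79), and Mgat4b, a Golgi glycosyltransferase (0.84).

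The nearest tested coding genes on either side of the 9 receptors numbered 15 beside the receptors themselves. In KO mice 1 of these was higher and 2 were lower in Treg, and in WT mice 0 were higher and 2 lower. Over all genes tested, 4.16% were higher and 2.65% lower in KO mice, and 2.2% and 1.98% in WT mice. Sdf4, which lies 232 bases from Tnfrsf4, averaged 5532 ± 1230.0 in Treg KO and 3535 ± 503 in Tconv KO (log2 difference 0.63, adjusted p = 0.0328), a call lost in 9 of 27 alternatives, the replicate block (0.104) among them. On the far side of Tnfrsf18, Ttll10 was at 28.7 ± 10.2 in Treg KO and 8.33 ± 6.87 in Tconv KO and did not pass (adjusted p = 0.229). Cd9, the nearest tested coding gene on 1 side of Tnfrsf1a, lies 97781 bases away from it. Cd9 was lower in Treg, with 89.0 ± 22.5 in Treg KO, against 343 ± 106 in Tconv KO, and 83.4 ± 42.7 in Treg WT, against 473 ± 71.1 in Tconv WT (log2 difference -1.91 and -2.62, adjusted p = 0.00156 and 0.000589). Tapbpl, next to Cd27, was lower in Treg as well (-0.83 and -0.86, adjusted p = 0.0124 and 0.0324), while Cd27 did not pass. The Tapbpl call in KO mice was lost without Treg KO 3 (0.0655), and that in WT mice in 10 of 27 alternatives, among them without the library labelled Treg WT 3 (0.165) and with the replicate block (0.0507).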

How the data were processed

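RNA was measured in 16 libraries, grouped by their titles. Per the labels' protocols, mice were perfused, cells were released from fat with collagenase and DNase and sorted, and 10 ng of RNA went into SMART-seq2 libraries (a kit that does not mark strand) read on a NextSeq, with bcl2fastq2 2.20. The deposited values are a normalised signal, and their steps show how it was built: reads over a scaling number for each library, with 1 added. Read back this way, 100% of the values below 1000 reads lay within 0.1 of a whole number (largest distance 0.00477). The tools in the submitters' processing notes are kallisto 0.44, DESeq2, R 3.3.1, CASAVA 1.8 and Partek 6.6, with the build mm10 and no roles. In the sources used here, neither the annotation nor the use of strand in counting is given. Library depth was 3.39 to 56.7 M reads, and floors cover counting error only. No column was left unmapped.

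Tests ran on log2(value + 1) for genes that reached 10 in 3 or more libraries, with limma 3.58.1 in R 4.3.3 (4 group means, mean-variance trend, all 16 libraries, 12 residual degrees of freedom), with Benjamini-Hochberg adjustment over 14319 genes per comparison. Fold changes on this scale understate the change of low genes. The step was also run on simulated counts, with the same relative spread for all genes and no library that stood apart. That run does not cover libraries that stood apart, as some did here. Hpgd and ratios were compared by exact 2-sided permutation tests in scipy 1.17.1. Levels per kb used the summed exon length of GENCODE M21, in which 18267 symbols (93.5%) were found, and promoters were RefSeq's. The promoter motif for NF-kB was narrowed to the standard consensus after a looser form was seen to match most windows.

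The receptors, the 7 lists of related genes (79 genes) and the 12 marker lists were chosen with earlier results of these data known. Named were all receptors and ligands, up to 4 passing genes per other list and comparison, the most alike genes of each receptor that passed in both genotypes, the nearest coding neighbours, Hpgd and Foxp3; further NF-kB genes that passed were named after their values were seen. Of the genes that this rule would name, 1 is not reported here. Tnfrsf11b, Tnfsf12 and Traf5 were not analysed here. Alternatives covered the pseudocount, filter, scaling, weights, voom on recovered reads, the libraries in the fit, a replicate block and each library left out.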

Additional observations from a re-analysis of the deposited data

Results flagged for a closer look

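In 61 groups of 4 or 5 libraries, over the receptors and their ligands, 1 library lay far from the rest in 6. Among the receptors this was Cd27, at 2578 in Tconv WT 4 (2289 reads), where the next library was at 1687. The other 5 were low-count ligands and partners. Tnfsf4 was at 51.7 (33 reads) in Treg KO 2 and had no reads in the other Treg KO libraries. Tnfsf18 was at 29.8 (37 reads) in Tconv KO 2 and had none in the other Tconv KO libraries. Cd70 was at 4.07 (2 reads) in Treg KO 2 and at 11.4 (13 reads) in Tconv KO 4, with none elsewhere in those groups. Cd160 was at 43.2 (35 reads) in Treg KO 1, with none in the other Treg KO libraries.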

How the results depend on the processing

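The 5 receptor calls in KO mice (Tnfrsf4, Tnfrsf18, Tnfrsf9, Tnfrsf25 and Tnfrsf1a) and the WT calls of Tnfrsf4 and Tnfrsf18 held in all 27 alternatives run; the WT calls of Tnfrsf9, Tnfrsf1a and Tnfrsf25 changed as given above, so that 2 to 4 receptors passed in WT mice. Over 1179 values of the receptors under an alternative, 1128 kept direction and call, 5 lost a call, 5 gained one and 41 changed sign, none of them near the threshold (lowest adjusted p 0.825). The cause of these changes was not tested. The count of genes passing KO against WT in Treg, 3, became 1 with a filter at 50 and with quality weights, and 0 with voom, with the groups compared alone and with the replicate block, and ran from 0 to 17 when 1 library was left out. That of the difference of KO effects, 0, ran from 0 to 2. In Treg against Tconv of KO mice, 975 genes ran from 652 to 1092 with 1 library left out. In WT mice, 599 genes became 288 with voom (284 shared) and 341 in a fit of the WT libraries alone (325 shared), and 339 to 664 with 1 library left out, lowest without the library labelled Treg WT 3. Receptors passing stayed at 0 of 9 in the KO against WT comparisons and their difference. Log2 values that changed sign, in Tconv KO against WT, were -0.0646 for Fas (voom), 0.0259 for Cd27 (quality weights), and, without the 3 Tconv libraries, 0.0935 for Tnfrsf4, 0.58 for Tnfrsf9, 0.12 for Tnfrsf1a and 0.40 for Tnfrsf25. In the difference they were 0.0339 for Tnfrsf14 and -0.0829 for Fas (quality weights) and, without the 3, -0.0470 for Tnfrsf25, 0.23 for Tnfrsf14 and -0.60 for Fas. In Treg against Tconv they were -0.0638 for Fas in KO mice without the 3, and -0.0767 (quantile scaling) and -0.18 (without the 3) for Tnfrsf1b in WT mice. With 1 library left out, Tconv KO against WT ran from -0.13 to 0.11 for Cd27 and -0.36 to 0.18 for Tnfrsf25, and Treg KO against WT from -0.0580 to 0.55 for Fas and -0.0761 to 0.57 for Tnfrsf25. Treg against Tconv ran from -0.37 to 0.0922 for Cd27 and -0.0638 to 0.39 for Fas in KO mice, and from -0.10 to 0.52 for Fas and -0.10 to 0.25 for Tnfrsf1b in WT mice. The difference ran from -0.36 to 0.26 for Fas, -0.40 to 0.18 for Tnfrsf14, -1.69 to 0.0910 for Tnfrsf1a and -0.00846 to 0.71 for Tnfrsf25. Negative binomial tests, planned for deposited counts, were not run, and voom on the recovered reads was run.

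The replicate numbers of the titles were not taken to pair the libraries, since no label ties a library to an animal. Deviations from the group mean were correlated between libraries with the same number. Over 7 pairs of Treg and Tconv libraries of 1 genotype, the correlation ran from 0.0227 to 0.0787. Over 7 pairs of KO and WT libraries of 1 cell type, which cannot share an animal, it ran from -0.0222 to 0.0744. Each of the 7 Treg libraries correlated best with the Tconv library of its own number and genotype, a hint from the data and not from the design. With the replicate block, 816 genes passed in KO mice and 567 in WT mice; with the block within genotype, 841 in KO and 507 in WT mice passed, and the Fas difference in WT mice was -0.10. The same 5 receptors in KO and 3 in WT mice passed under both, and the block changed no other receptor call. Among the listed genes and neighbours, it ended the calls of Ltb (adjusted p = 0.0805) and Sdf4 (0.104) in KO mice and of Birc2 (0.0584) and Tapbpl (0.0507) in WT mice. Depth limits Tnfrsf1a, Tnfrsf14, Fas and Tnfrsf9 in Tconv, which rested on 0 to 1473, 34 to 1153, 87 to 948 and 67 to 391 reads a library.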
